A study of Mus musculus with 7 samples.

Results

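The neutrophil granule and maturation genes are 10 genes, Camp, Ltf, Ngp, Lcn2, Retnlg, Csf3r, Il1r2, Lrg1, Stfa2l1 and Wfdc17, chosen by symbol from the 31253 genes of the feature tables with earlier results of these data known. The order along maturation, the differences between libraries and the change with genotype in neutrophils belonged to that choice, so these values are given as a description and support nothing by themselves. All 10 genes were found in all 7 libraries. Smad4iko mice carry floxed Smad4 alleles and Rosa26-creERT2, a Cre recombinase that tamoxifen activates and that is expressed in nearly all cells, and 4 were profiled. The comparison group was 3 Smad4fl/fl littermates without Cre. Every mouse of both groups received tamoxifen at 75 mg/kg in 5 injections between postnatal days 21 and 26. Peripheral lung was taken at 8 weeks, its red blood cells were lysed, and its cells were measured by droplet-based 3' RNA sequencing, with 1 library per mouse. The Cre is not specific to neutrophils, so a difference between neutrophils of the genotypes need not start in them.

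Neutrophils are made in the bone marrow, and they fill their granules in sequence as they mature. Primary granule proteins such as myeloperoxidase come first, specific granule proteins follow at the myelocyte and metamyelocyte stages, and gelatinase and secretory proteins come last. Transcripts of specific granule proteins are therefore usual in marrow precursors and scarce in blood and tissue neutrophils, which express cytokine receptors and inflammatory genes instead. C/EBP epsilon and PU.1 are transcription factors of this lineage.

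Neutrophils were taken as cells with at least 20 unique molecular identifiers (UMIs) of S100a8 and S100a9 together, which encode the subunits of calprotectin, and at least 1 UMI of Csf3r or Cxcr2. The gate held 7201 of 49671 kept cells (14.5%). It held 994, 2047, 1432 and 840 cells in Smad4iko 1 to 4, and 299, 589 and 1000 cells in Smad4fl/fl 1 to 3. Of the gated cells 97.6% lay in neutrophil clusters. These were built without the 10 genes, but S100a8, S100a9 and Cxcr2 were not left out of the clustering. The markers that named them included the gate genes and Retnlg, so this overlap is no independent check of the gate. Near the threshold, 108 gated cells held 20 to 29 of the S100 UMIs. The median of S100a8 and S100a9 together was 452.5, 706, 498.5 and 393.5 UMIs per gated cell in Smad4iko 1 to 4, and 92, 169 and 295 UMIs in Smad4fl/fl 1 to 3. Levels are given as CPM, the UMIs of a gene scaled to all UMIs of the gated cells of a library.

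Libraries stood apart in several ways before any gene is considered. The cluster c7 held 95.5% and 91.1% of the gated cells of Smad4iko 3 and 4, and 1.00% to 9.34% of those of the other 5 libraries. These 2 libraries stood apart in other lineages too. They gave 1443 and 1382 of the 2936 cells of T cell cluster c5, and 1111 and 299 of the 1429 cells of B cell cluster c10. Of the 1383 cells of alveolar macrophage cluster c11 they gave 723 and 535, while NK cells of all libraries shared cluster c2. Erythroid markers in gated cells summed to 736, 1127, 15164 and 11035 CPM in Smad4iko 1 to 4, and to 3.82, 14.4 and 146 CPM in Smad4fl/fl 1 to 3. Smad4fl/fl 1, with the fewest neutrophils, also held 2146 CPM of large vessel endothelium markers in gated cells, against 89.0 to 317 CPM elsewhere, and 946 CPM of AT2 markers, against 42.0 to 261 CPM. The gated cells of a library held 1048313 to 8092780 UMIs, and medians per cell ran between 2120 and 3653 UMIs. Pairs of libraries shared at most 0.346% of the smaller library's barcodes. By Xist and Ddx3y, Smad4iko 3 and Smad4fl/fl 3 were female. Smad4, the targeted gene, stood at 40.1, 45.8, 36.4 and 50.4 CPM in gated neutrophils of Smad4iko 1 to 4, and at 57.2, 66.1 and 60.2 CPM in Smad4fl/fl 1 to 3. All Smad4iko values were lower, and the log2 change of -0.30 ± 0.24 (SE) did not pass edgeR's quasi-likelihood test (adjusted p = 0.785). Which exon is removed is not stated in the labels. Reads near the 3' end may come from outside it, and so Smad4 levels are no measure of recombination.

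Camp, Ngp and Ltf encode specific granule proteins, and their promoters are shown because these 3 genes mark the same few cells below. Camp encodes the antimicrobial peptide precursor cathelicidin (chromosome 9, 109847379 to 109849617, minus strand). Ngp encodes neutrophilic granule protein (chromosome 9, 110419747 to 110423012, plus strand), and Ltf the iron-binding protein lactoferrin (chromosome 9, 111019271 to 111042767, plus strand). All 3 lie on the same stretch of chromosome 9 in GENCODE M21 coordinates (GRCm38, the same genome as mm10). The 250 bases before the RefSeq start of each gene (GRCm38.p6) follow 5' to 3' on the gene's strand, with matches to the C/EBP core TTNNGNAA and the PU.1 core GAGGAA in capitals, searched on both strands. The windows are chr9:109849457-109849706 (minus) for Camp, chr9:110419558-110419807 (plus) for Ngp and chr9:111019042-111019291 (plus) for Ltf.
Camp: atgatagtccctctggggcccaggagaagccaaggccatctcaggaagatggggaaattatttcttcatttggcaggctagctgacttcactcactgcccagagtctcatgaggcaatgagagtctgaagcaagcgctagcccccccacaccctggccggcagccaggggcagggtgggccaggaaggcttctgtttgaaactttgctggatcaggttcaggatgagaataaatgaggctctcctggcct
Ngp: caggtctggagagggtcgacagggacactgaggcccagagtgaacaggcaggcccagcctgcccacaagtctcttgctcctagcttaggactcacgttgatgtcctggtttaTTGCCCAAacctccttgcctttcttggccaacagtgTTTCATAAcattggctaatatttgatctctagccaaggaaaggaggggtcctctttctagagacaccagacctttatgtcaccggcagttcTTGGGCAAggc
Ltf: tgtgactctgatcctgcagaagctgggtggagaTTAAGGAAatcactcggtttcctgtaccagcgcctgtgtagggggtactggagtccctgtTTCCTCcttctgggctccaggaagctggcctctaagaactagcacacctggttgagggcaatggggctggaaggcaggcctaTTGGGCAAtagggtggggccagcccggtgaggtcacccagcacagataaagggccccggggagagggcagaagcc
Ngp held 3 matches to the C/EBP core, starting 138, 102 and 11 bases upstream, and none to the PU.1 core. Ltf held 2 C/EBP matches, starting 217 and 75 bases upstream, and 1 PU.1 match at 157 bases. The Camp window held neither set of letters. Of the other genes, Wfdc17 held 2 C/EBP matches, Lcn2, Retnlg and Stfa2l1 held 1 each, and Csf3r, Il1r2 and Lrg1 held none. The PU.1 core was matched in 5 of the 10 windows, those of Ltf, Lcn2, Csf3r, Stfa2l1 and Wfdc17, and none of the matches overlapped. Of 32851 mouse promoter windows of this length, 36.8% held the C/EBP core and 23.3% the PU.1 core, so single matches are common. The RefSeq starts of Camp, Lcn2 and Il1r2 lay 161, 513 and 12014 bases from the GENCODE gene start, each inside the GENCODE gene. The windows of Lcn2 and Il1r2 therefore lie wholly within the gene, and so do 161 of the 250 bases of the Camp window. Those of Ngp and Ltf reach into the gene by 61 and 21 bases.

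Transcripts of Camp, Ltf and Ngp were concentrated in a small set of neutrophils. Of 7201 gated cells, 193 (2.68%) held at least 5 UMIs of the 3 genes together, and these cells held 99.2% of the Camp UMIs, 94.4% of the Ltf UMIs and 95.1% of the Ngp UMIs. They also held 32.5% of the UMIs of Lcn2, which encodes lipocalin 2, an iron-siderophore binding protein of specific granules (chromosome 2, 32384633 to 32388252, minus strand). The richest cell held 2298 UMIs of the 3 granule genes, and 6311 cells held none. A cell of Smad4iko 1 gave 1184 of the 5008 Camp UMIs of that library. Of 84 cells with at least 3 Camp UMIs, 94.0% also held at least 3 of Ngp and 97.6% at least 3 of Lcn2. In the other direction, 31.2% of 253 such Ngp cells held 3 of Camp, and 3.19% of 2567 such Lcn2 cells did. Camp cells were thus nearly all Ngp and Lcn2 cells, while most Lcn2 cells had little Camp.

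The share of these granule-gene cells was 2.92%, 2.64%, 3.70% and 4.52% of gated neutrophils in Smad4iko 1 to 4, and 0%, 1.70% and 0.900% in Smad4fl/fl 1 to 3. The mean was 3.45% ± 0.848 (SD, n = 4) in Smad4iko and 0.866% ± 0.849 (SD, n = 3) in Smad4fl/fl, and the groups did not overlap. Exact binomial 95% intervals overlapped between single libraries, such as 1.99% to 3.43% in Smad4iko 2 and 0.817% to 3.10% in Smad4fl/fl 2. In Smad4fl/fl 1, 0 of 299 cells allow a share of up to 1.00% by the limit of 3 counts, and the exact binomial upper bound is 1.23%. Intervals and limits cover counting error only. At a minimum of 10 UMIs the groups overlapped, with 1.47% in Smad4iko 2 against 1.53% in Smad4fl/fl 2. Granule-gene cells were deep, with a median of 8820 UMIs against 3383 in the other gated cells of Smad4iko 1. Among cells thinned to 1000 UMIs each the shares were 1.83%, 0.793%, 0.840% and 3.59% in Smad4iko 1 to 4, and 0%, 1.21% and 0.501% in Smad4fl/fl 1 to 3, and the groups overlapped. The score adds 3 of the 10 genes and was not tested.

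Listed transcripts of other specific granule genes and their regulators were higher on average in the granule-gene cells than in the other gated cells. Those of primary granules and of dividing cells were near 0 in the granule-gene cells. They were set against the other gated cells in the 6 libraries with at least 5 of them, as a description without a test. Of the 15 listed other specific granule genes and their regulators, 15 had a mean log2 ratio above 0. Of these, 11 were higher in all 6 libraries, and the list median was 1.86. Over the 9071 genes tested in gated neutrophils the median was -0.45, 16.3% had a mean ratio above 0 and 2.47% were higher in all 6 libraries. Mmp8, the neutrophil collagenase gene, averaged 1438 CPM in granule-gene cells and 179 CPM in the others (log2 ratio 2.99 ± 0.61, SD, n = 6 libraries). Cd177 averaged 515 CPM in granule-gene cells and 22.9 CPM in the others (4.27 ± 0.90), and Ly6g, the surface marker of mouse neutrophils, 655 CPM and, in the others, 113 CPM (2.91 ± 1.00). Lcn2 averaged 9234 CPM in granule-gene cells and 929 CPM in the others, and Retnlg 32356 CPM in granule-gene cells and 4074 CPM in the others. In granule-gene cells Csf3r averaged 475 CPM, against 1387 CPM in the others, Il1r2 840 CPM against 1693 CPM, and Wfdc17 1065 CPM against 3031 CPM, each lower in granule-gene cells in all 6 libraries. The gate uses Csf3r, and granule-gene cells were deeper, with a median of 6276 UMIs against 3139 in the others over all libraries. The part of the gate in the Csf3r values was not tested. Il1b, the inflammatory cytokine gene, averaged 4576 CPM in granule-gene cells and 13342 CPM in the others. Of the 6 primary granule genes, Mpo, Elane, Ctsg and Prtn3 had 0 UMIs in granule-gene cells and at most 0.760 CPM in the others, so their absence from 193 cells says little. Ms4a3 averaged 1.19 CPM in granule-gene cells and 0.126 CPM in the others, and Prss57 0.487 CPM in granule-gene cells and 4.24 CPM in the others. Of 6 cell cycle genes, 0 had a mean ratio above 0, and Mki67 averaged 2.04 CPM in granule-gene cells and 15.8 CPM in the others.

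**Figure D1:**
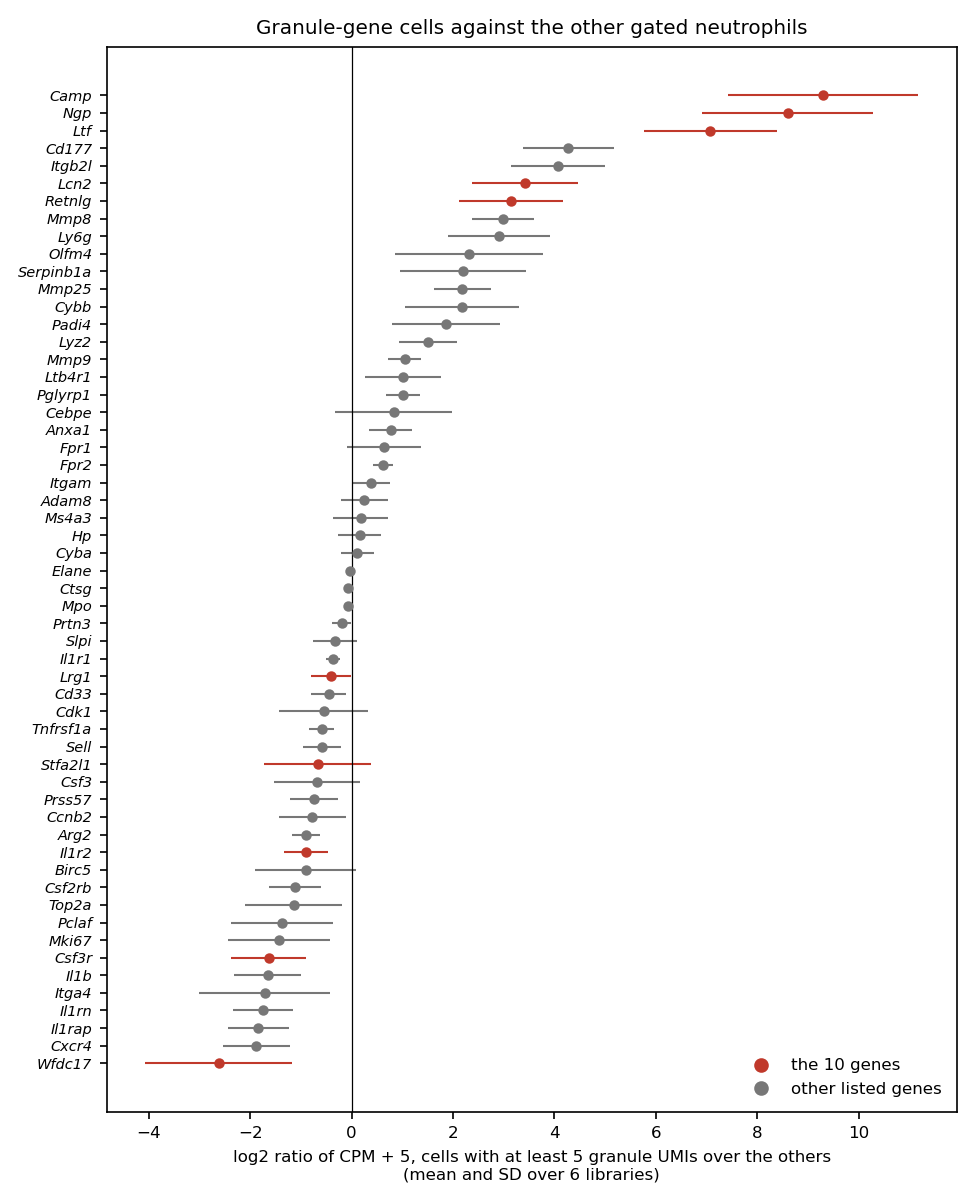
Log2 ratio of CPM (with 5 added) in gated neutrophils with at least 5 UMIs of Camp, Ltf and Ngp over the other gated neutrophils. Points are means and bars SDs over the 6 libraries with at least 5 such cells, red for the 10 genes and grey for other listed genes. Camp, Ngp and Ltf defined the cells, Lcn2 and Retnlg stood at 3.42 and 3.14, and Wfdc17 was the lowest at -2.62.

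An order along maturation that uses none of the 10 genes placed them on opposite sides. Cells of each library were ranked by the mean of 15 mature genes, such as Il1b and Cxcl2, minus that of 15 immature genes, such as Mmp8 and Cd177, and cut into 5 equal bins. The immature genes Mmp8, Cd177, Cebpe, Anxa1, Serpinb1a, Ly6g and Itgb2l are also on the list of other specific granule genes and their regulators. The order is therefore not independent of the granule genes. The immature list was mixed in the granule-gene cells, where 10 of its 15 genes had a mean log2 ratio above 0. Ptma (-1.30) and Stmn1 (-2.26) were higher there in 0 of 6 libraries, so bin 1 need not hold immature cells alone. Camp averaged 1389, 4.08, 6.40, 2.14 and 4.81 CPM over the 7 libraries from bin 1, the most immature, to bin 5. Ngp averaged 2039, 93.8, 40.0, 19.4 and 10.7 CPM over the same bins, a slower decline than that of Camp. Ltf averaged 339 CPM in bin 1 and 6.87 to 9.09 CPM in bins 2 to 5. Camp and Ltf were therefore found almost entirely in the first bin, and Ngp reached further into the order, mainly in Smad4iko 2 to 4. In bin 2 these held 154, 175 and 243 CPM of Ngp, against 0 to 39.3 CPM in the other libraries. The log2 ratio of bin 5 to bin 1, with 10 CPM added, was -5.06 ± 3.05 for Camp, -3.18 ± 2.23 for Ltf and -5.75 ± 2.80 for Ngp (SD, n = 7 libraries).

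Lcn2 and Retnlg, which encodes a resistin-like secreted protein (chromosome 16, 48872621 to 48874496, plus strand), declined from bin to bin in their means over the 7 libraries, though not at each step in every library. Lcn2 averaged 2318, 1033, 915, 728 and 637 CPM from bin 1 to bin 5, and its log2 ratio was -1.44 ± 1.53. Retnlg averaged 9278, 4912, 3804, 3206 and 1896 CPM, and its log2 ratio was -2.09 ± 1.42. In 6 of 7 libraries each was lower in bin 5 than in bin 1. The exception for Lcn2, Retnlg, Camp and Ltf was Smad4fl/fl 1, with log2 ratios of 1.86 for Lcn2 and 0.96 for Retnlg, and its bin 1 held 23465 CPM of S100a8 and S100a9 against 90111 to 234456 CPM in bin 1 of the others. The part of the endothelial and AT2 transcripts of that library in its order was not tested.

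The receptors and the late genes stood higher in bin 5 than in bin 1 on average, by less than the granule genes stood lower. Csf3r encodes the receptor of granulocyte colony-stimulating factor (chromosome 4, 126024550 to 126044440, plus strand), and Il1r2 the decoy receptor that binds interleukin 1 without signalling (chromosome 1, 40074079 to 40125231, plus strand). Csf3r had a log2 ratio of bin 5 to bin 1 of 0.69 ± 0.28 and Il1r2 of 0.90 ± 0.18, both higher in bin 5 in 7 of 7 libraries. Csf3r is a gate gene, and the part of the gate in its ratio was not tested. With a Cxcr2 UMI required instead, the Csf3r ratio was 0.70. Lrg1, which encodes the secreted leucine-rich alpha-2-glycoprotein 1 (chromosome 17, 56119678 to 56122001, minus strand), had a ratio of 0.52 ± 0.34 and was higher in 7 of 7. Wfdc17 encodes a secreted protein with a whey acidic protein domain (chromosome 11, 83703991 to 83706268, plus strand), and its ratio was 0.54 ± 0.87, higher in 6 of 7. Stfa2l1 encodes a stefin, a family of cysteine protease inhibitors (chromosome 16, 36156811 to 36161953, plus strand). Its ratio of 0.37 ± 0.42 was above 0 in 5 of 7 libraries. Among cells of the neutrophil clusters alone these ratios shrank to 0.22 for Csf3r, 0.43 for Il1r2, 0.12 for Lrg1 and 0.11 for Wfdc17, the last 2 higher in bin 5 in 4 of 7 libraries, and Stfa2l1 was at -0.21. Among gated cells with no UMI of another lineage's markers they were 0.27 for Csf3r, 0.49 for Il1r2, 0.18 for Lrg1, 0.22 for Wfdc17 and -0.01 for Stfa2l1. For these 5 genes most of the rise came between bins 1 and 2, as for Il1r2 with 1063, 1868, 1935, 1894 and 2020 CPM from bin 1 to bin 5.

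**Figure D2:**
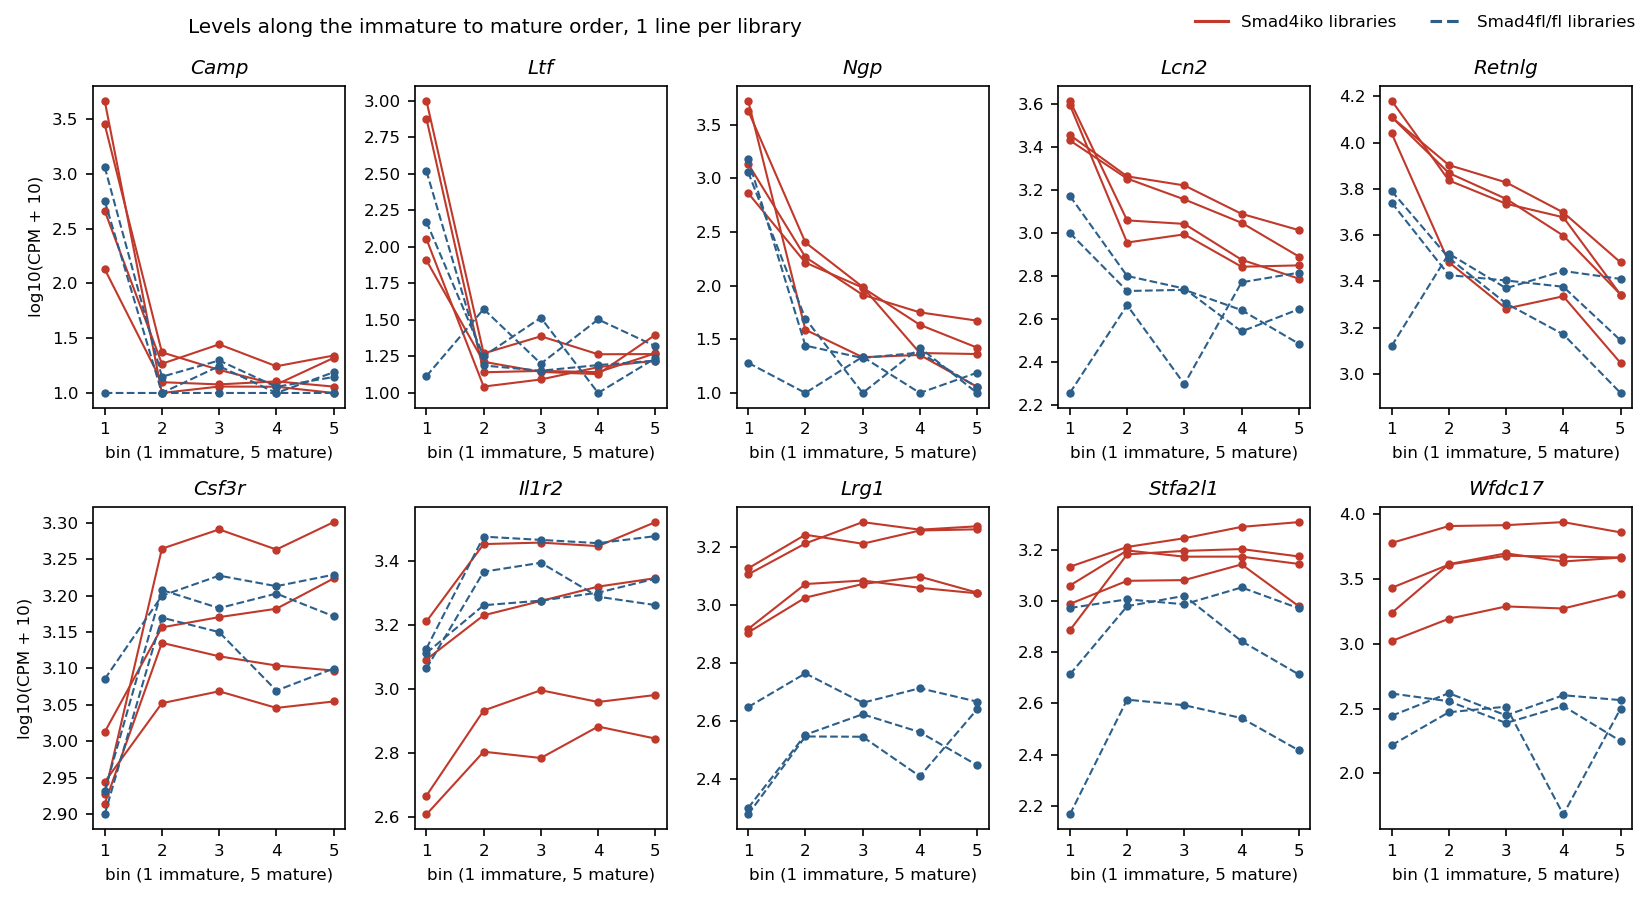
Levels of the 10 genes on a log10 scale (log10 of CPM + 10) in 5 equal bins of gated neutrophils from immature (1) to mature (5), with 1 line per library, solid red for Smad4iko and dashed blue for Smad4fl/fl. Camp and Ltf drop after bin 1, Lcn2 and Retnlg are lower in bin 5 than in bin 1 except in Smad4fl/fl 1, and the 2 low lines of Il1r2 are Smad4iko 3 and 4.

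Across cells of a library the 10 genes formed a granule group and otherwise varied separately. The mean over 7 libraries of the within-library Pearson correlation of log-normalised levels was 0.58 for Camp with Ngp, 0.57 for Camp with Ltf, 0.43 for Ltf with Ngp and 0.34 for Lcn2 with Retnlg. Camp and Ngp ranged from -0.01 in the lowest library to 0.84 in the highest. Among the 10 pairs of Csf3r, Il1r2, Lrg1, Stfa2l1 and Wfdc17 no mean passed 0.09. Of other genes, Adpgk, an ADP-dependent glucokinase gene, was nearest to Camp (0.43), Ngp (0.48) and Ltf (0.33), before Cd177, which encodes a neutrophil surface glycoprotein (0.39 with Camp and 0.43 with Ngp). Ifitm6 followed at 0.30 with Camp and 0.36 with Ngp. Lcn2 and Retnlg were nearest to S100a8 (0.37 and 0.45) and S100a9 (0.36 and 0.45), then to Wfdc21 (0.31 and 0.38). Stfa2l1 was nearest to Cstdc4 (0.38), another gene of its family, and reads of such near-identical copies can be split, so levels of stefins are uncertain. Csf3r, Il1r2, Lrg1 and Wfdc17 had no neighbour of 0.3 or more. Cells of a library share its depth and composition, so these values are descriptions.

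Between the genotypes, 5 of the 10 genes stood higher in all 4 Smad4iko libraries than in any Smad4fl/fl library. These were Wfdc17, Lrg1, Lcn2, Retnlg and Stfa2l1. Of all 9071 genes tested in gated neutrophils, 2.12% were separated in this direction and 5.53% in the other. Because the choice of the 10 genes used this contrast, nothing is read from that count. edgeR's quasi-likelihood test called 0 of 9071 genes (0%), with 629 at an unadjusted p under 0.05 (6.93%; 3.27% of genes were higher in Smad4iko at that p). DESeq2 called 28 of 6528 genes (0.429%), 25 of them higher in Smad4iko, and these 28 included Wfdc17, Lrg1, Lcn2 and Retnlg.

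Wfdc17 had the widest difference of the 10 genes. It stood at 1681, 7478, 4006 and 3531 CPM in Smad4iko 1 to 4, and at 210, 309 and 334 CPM in Smad4fl/fl 1 to 3. The lowest Smad4iko library lay above all Smad4fl/fl libraries, and the Smad4iko libraries ranged more widely among themselves. The mean was 4174 ± 2420 CPM in Smad4iko (SD, n = 4) and 285 ± 65.9 CPM in Smad4fl/fl (SD, n = 3), and the log2 change was 4.13 ± 0.64 (SE), with adjusted p = 0.468 in edgeR and adjusted p = 1.5e-10 in DESeq2. With no filter on low counts, edgeR's adjusted p was 0.0130. In cells thinned to 1000 UMIs, 47.8% to 87.9% of gated neutrophils held a Wfdc17 UMI in Smad4iko and 11.8% to 16.4% in Smad4fl/fl (without thinning, 65.7% to 94.97% in Smad4iko and 18.7% to 30.9% in Smad4fl/fl). Thinning left out 47 Smad4iko and 14 Smad4fl/fl neutrophils with fewer UMIs. In T cells, which should lack it, the thinned share was at most 2.23%, at a median depth of 4830 to 7280 UMIs against 2120 to 3653 in neutrophils. Without thinning, 1.74% to 11.7% of T cells held a Wfdc17 UMI in Smad4iko and 0.180% to 0.819% in Smad4fl/fl. This background thus also differed between the genotypes. Thinning takes more from the deeper T cells.

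Lrg1 stood at 1040, 1624, 1644 and 1033 CPM in Smad4iko 1 to 4, and at 288, 294 and 479 CPM in Smad4fl/fl 1 to 3. The groups did not overlap, with a log2 change of 2.12 ± 0.43 (SE), with adjusted p = 0.498 in edgeR and 0.000512 in DESeq2. Lcn2 stood at 1678, 1657, 1834 and 1994 CPM in Smad4iko 1 to 4, and at 376, 619 and 727 CPM in Smad4fl/fl 1 to 3. Its 4 Smad4iko libraries were close together, and the change was 1.80 ± 0.35 on the log2 scale, with adjusted p = 0.498 in edgeR and 0.000242 in DESeq2. Retnlg stood at 4525, 7018, 7754 and 8386 CPM in Smad4iko 1 to 4, and at 2296, 3239 and 3031 CPM in Smad4fl/fl 1 to 3, 1.46 ± 0.34 higher on the log2 scale, with adjusted p = 0.635 in edgeR and 0.00257 in DESeq2. Stfa2l1 stood at 1117, 1389, 1689 and 1270 CPM in Smad4iko 1 to 4, and at 278, 699 and 984 CPM in Smad4fl/fl 1 to 3, 1.22 ± 0.48 higher on the log2 scale, with adjusted p = 0.675 in edgeR and 0.392 in DESeq2. For Stfa2l1 the gap between Smad4iko 1 and Smad4fl/fl 3 was small beside the spread within the groups. Among thinned cells Lrg1 was detected in 55.9% to 75.6% of Smad4iko and 20.03% to 31.3% of Smad4fl/fl neutrophils, and Lcn2 in 36.6% to 52.6% of Smad4iko and 22.3% to 24.3% of Smad4fl/fl neutrophils. S100a8 and S100a9, which the gate uses, were also higher in all Smad4iko libraries, with means of 72909 and 105473 CPM against 27223 and 48968 CPM in Smad4fl/fl.

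The 3 granule genes overlapped between the genotypes. Camp stood at 1287, 34.7, 131 and 963 CPM in Smad4iko 1 to 4, and at 0.954, 181 and 285 CPM in Smad4fl/fl 1 to 3. Ltf stood at 282, 24.0, 30.7 and 256 CPM in Smad4iko 1 to 4, and at 12.4, 51.0 and 82.8 CPM in Smad4fl/fl 1 to 3. Ngp stood at 1479, 246, 433 and 1512 CPM in Smad4iko 1 to 4, and at 5.72, 374 and 377 CPM in Smad4fl/fl 1 to 3. For each, Smad4iko 1 and 4 were the highest and Smad4fl/fl 1 the lowest library. Log2 changes were 1.94 ± 1.37 for Camp, 1.58 ± 0.92 for Ltf and 1.89 ± 1.06 for Ngp (SE), with edgeR adjusted p = 0.760, 0.729 and 0.711. With each library left out in turn they ran from 1.09 to 3.00 for Camp, 0.92 to 2.50 for Ltf and 1.32 to 2.56 for Ngp.

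Csf3r and Il1r2 were not separated between the genotypes. Csf3r, which the gate uses, stood at 1155, 1058, 1377 and 1534 CPM in Smad4iko 1 to 4, and at 1150, 1317 and 1534 CPM in Smad4fl/fl 1 to 3, and its ranges coincided. Il1r2 stood at 2571, 1757, 590 and 758 CPM in Smad4iko 1 to 4, and at 1816, 2413 and 1801 CPM in Smad4fl/fl 1 to 3. Smad4iko 3 and 4 were far below the other 5 libraries, and Smad4iko 1 was the highest of all. Il1r2 had a log2 change of -0.22 ± 0.54 (SE), with adjusted p = 0.941 in edgeR. The change was 0.47 without Smad4iko 3 and 4, 0.03 without Smad4iko 3 and 0.03 without Smad4iko 4. Among thinned cells Il1r2 was found in 42.1% and 50.6% of neutrophils of Smad4iko 3 and 4, and in 75.4% to 84.9% of those of the other 5 libraries.

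**Figure D3:**
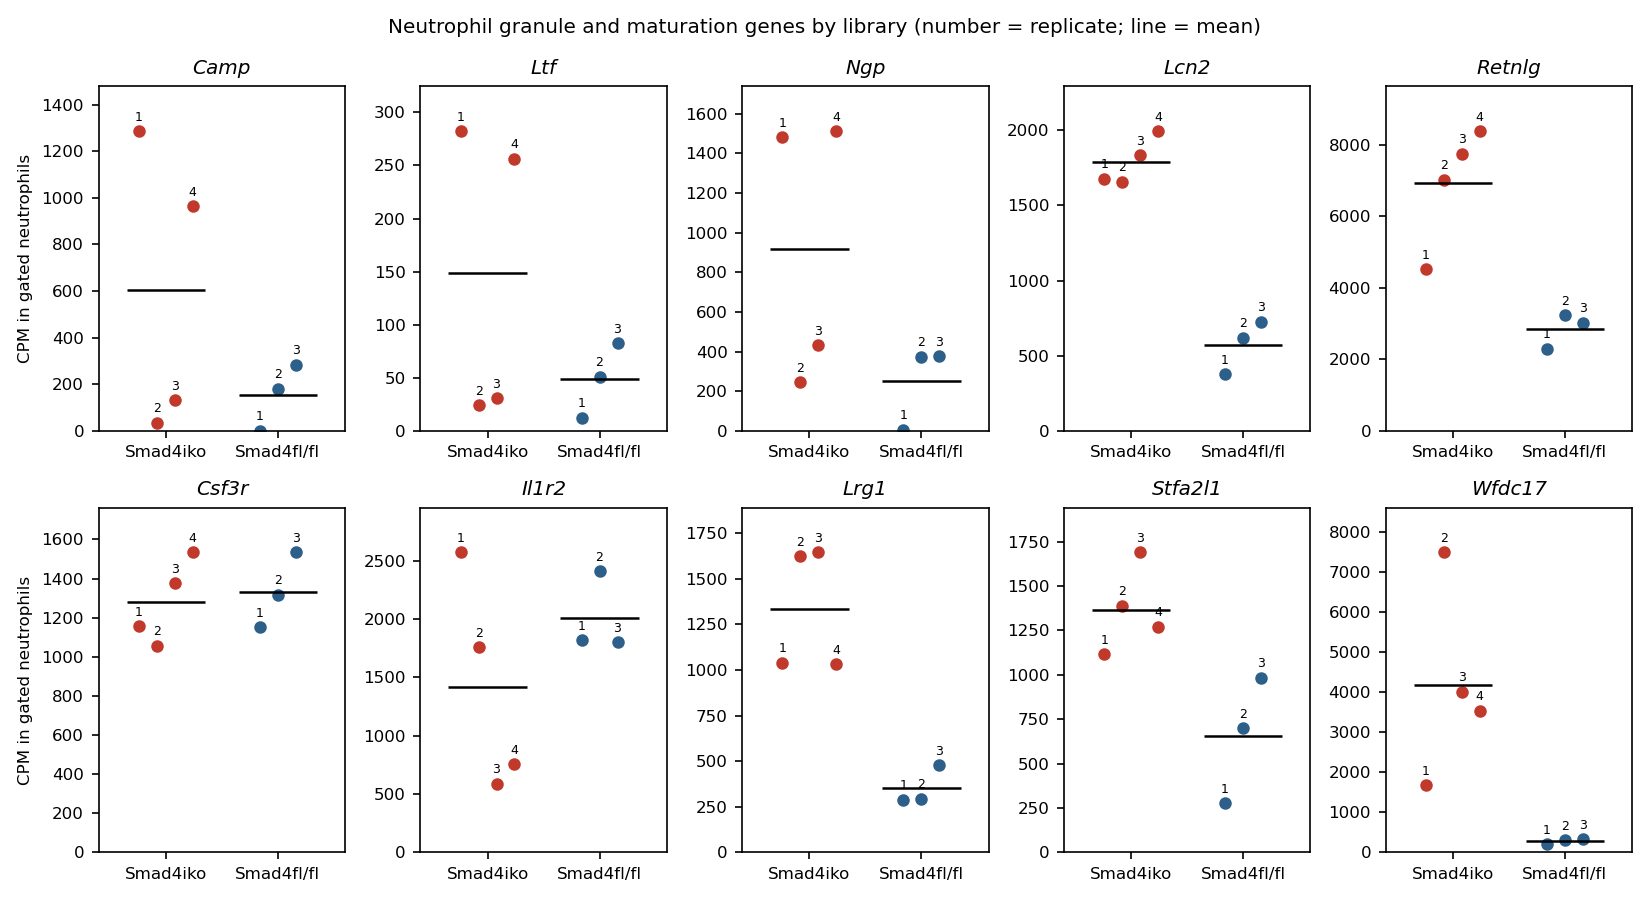
CPM of the 10 genes in gated neutrophils, each point a library numbered by replicate, with lines at group means, Smad4iko left of Smad4fl/fl. Wfdc17, Lrg1, Lcn2, Retnlg and Stfa2l1 do not overlap between the genotypes, Camp, Ltf and Ngp spread widely within both, and Il1r2 is low in Smad4iko 3 and 4.

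Lrg1 and Wfdc17 separated the genotypes in all 5 bins of the order, Lcn2 in bins 1 to 4, and Retnlg in bin 1 only. Bin 1 of Smad4fl/fl 1, which held the least S100a8 and S100a9, was the lowest there, at 170 CPM of Lcn2 and 1308 CPM of Retnlg. The share of all genes separated within a bin was not counted. In bin 1, Wfdc17 averaged 2848 ± 2183 CPM in Smad4iko (SD, n = 4) and 275 ± 124 CPM in Smad4fl/fl (SD, n = 3), and Lrg1 1047 ± 284 CPM in Smad4iko and 267 ± 144 CPM in Smad4fl/fl. In bin 5 of the order, the most mature cells, Wfdc17 averaged 4695 ± 1968 CPM in Smad4iko (SD, n = 4) and 277 ± 98.0 CPM in Smad4fl/fl (SD, n = 3). Lrg1 averaged 1458 ± 429 CPM in Smad4iko and 383 ± 98.9 CPM in Smad4fl/fl there, and Stfa2l1 1457 ± 443 CPM in Smad4iko and 561 ± 341 CPM in Smad4fl/fl, all without overlap. Lcn2 averaged 3396 ± 734 CPM in Smad4iko and 879 ± 661 CPM in Smad4fl/fl in bin 1, without overlap. In bin 5 it averaged 772 ± 179 CPM in Smad4iko and 457 ± 175 CPM in Smad4fl/fl, and the groups overlapped. Retnlg averaged 12993 ± 1727 CPM in Smad4iko and 4324 ± 2634 CPM in Smad4fl/fl in bin 1, without overlap. In bin 5 it averaged 2127 ± 787 CPM in Smad4iko and 1588 ± 891 CPM in Smad4fl/fl, with overlap. Whether the genotype difference itself changes along the order was not tested.

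**Figure D4:**
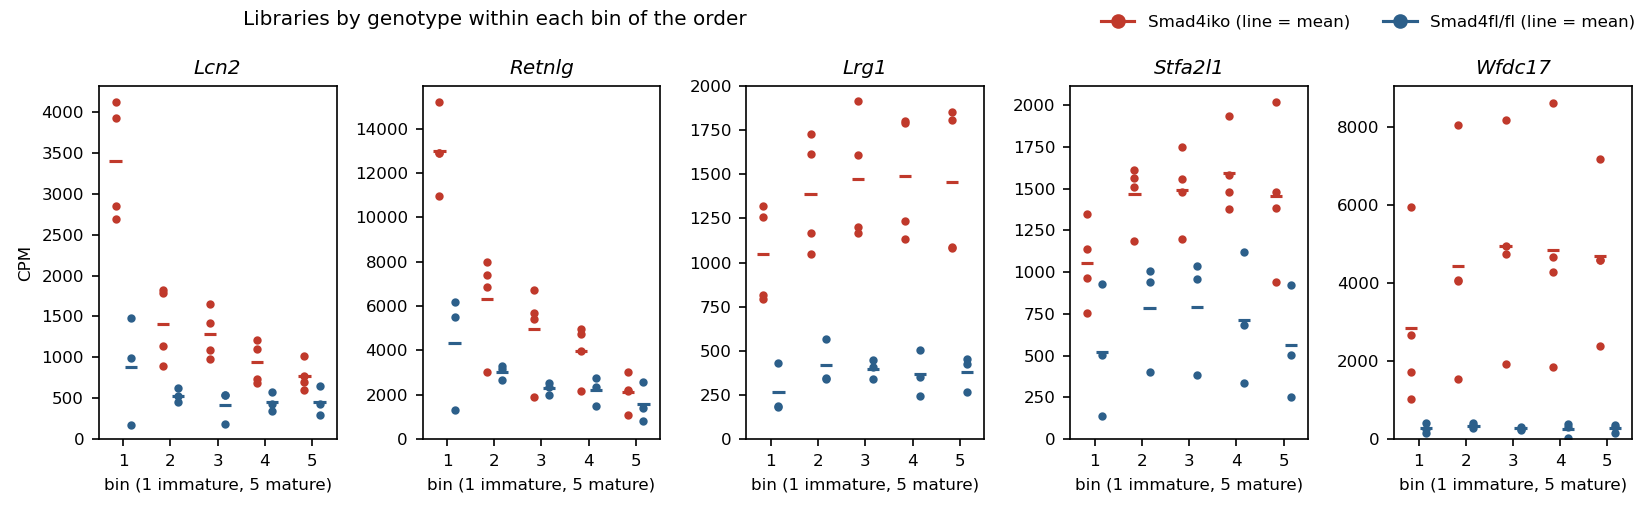
CPM of 5 genes in each bin of the order from immature (1) to mature (5), each point a library and each short line a group mean, Smad4iko (red) left of Smad4fl/fl (blue). Lcn2 and Retnlg separate the genotypes in bin 1 and overlap in bin 5, Lrg1 and Wfdc17 are apart in all 5 bins, and Stfa2l1 is apart in bin 5 but not in bin 1.

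The log2 changes were also taken without the granule-gene cells. In all gated cells they were 4.13 for Wfdc17, 2.12 for Lrg1, 1.80 for Lcn2, 1.46 for Retnlg and 1.22 for Stfa2l1. Cells with fewer granule UMIs stay in the reduced set, and the part of maturity in these changes was not tested. Among the 7008 gated cells with under 5 UMIs of Camp, Ltf and Ngp, a setting chosen after the data were seen, the log2 change was 4.15 for Wfdc17, 2.13 for Lrg1, 1.69 for Lcn2, 1.42 for Retnlg and 1.27 for Stfa2l1, with edgeR adjusted p between 0.343 and 0.683. Without Smad4iko 3 and 4, the libraries with the most erythroid transcripts, these changes were 4.44, 2.28, 1.88, 1.41 and 1.26. Erythroid transcripts in gated cells were higher in all Smad4iko than in all Smad4fl/fl libraries, as given above, and their part in these results was not tested. On the log2 scale, 9 of the 10 genes were above 0 with a median of 1.69, against 4061 of 9071 genes tested and a median of -0.06. The 10 genes were chosen with this contrast known, so nothing is read from that count or median. Scaling by library size alone lowered the median of all genes by 0.19 and kept the direction of each of the 10 genes but Csf3r, which moved to -0.06.

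Other listed genes of neutrophil maturation were compared in the same fit, and 0 genes of any list passed the edgeR test. DESeq2 called 1 of them, Ly6g, at 196 ± 106 CPM in Smad4iko and 39.4 ± 22.9 CPM in Smad4fl/fl without overlap (adjusted p = 0.00941). Of all 9071 genes tested, 4061 had a log2 change above 0, and 2.12% were higher and 5.53% lower without overlap. The lists were chosen with earlier results of these data known, so nothing is read from the counts that follow. Of 15 other specific granule genes and their regulators, 14 had a log2 change above 0, with a list median of 0.85. Among the 6 with the highest level, Hp, the haptoglobin gene, averaged 2078 ± 252 CPM in Smad4iko and 1272 ± 464 CPM in Smad4fl/fl, and Pglyrp1, which encodes a peptidoglycan recognition protein, 1242 ± 160 CPM in Smad4iko and 783 ± 232 CPM in Smad4fl/fl, both without overlap. Mmp8, Lyz2, Anxa1 and Cyba overlapped. Of 7 gelatinase granule and late genes 6 were above 0 with a median of 0.30, and Mmp9 averaged 672 ± 262 CPM in Smad4iko and 553 ± 277 CPM in Smad4fl/fl. Of 6 primary granule genes 1 had enough counts to be tested, Prss57 at 4.65 ± 1.85 CPM in Smad4iko and 3.17 ± 1.63 CPM in Smad4fl/fl, and the other 5 stood at or below 1.66 CPM on average in either group. Of 13 migration and cytokine receptor genes 7 were above 0, among them Tnfrsf1a, the tumour necrosis factor receptor 1 gene, at 433 ± 56.9 CPM in Smad4iko and 248 ± 47.1 CPM in Smad4fl/fl without overlap. Cxcr4, a chemokine receptor gene of the same list, was lower in all Smad4iko libraries, at 433 ± 66.8 CPM in Smad4iko and 584 ± 102 CPM in Smad4fl/fl. Il1b averaged 11226 ± 3047 CPM in Smad4iko and 12683 ± 6027 CPM in Smad4fl/fl. Of 15 mature genes of the order 3 were above 0 with a median of -0.17, and Cxcl2, a chemokine gene, averaged 11293 ± 2351 CPM in Smad4iko and 18333 ± 3873 CPM in Smad4fl/fl, and H2-D1, a major histocompatibility gene, 3062 ± 437 CPM in Smad4iko and 3985 ± 370 CPM in Smad4fl/fl, both lower in all Smad4iko libraries. Of 14 immature genes of the order tested 8 were above 0 with a median of 0.51. Of the 2 stefins tested besides Stfa2l1, Stfa2 averaged 86.3 ± 55.3 CPM in Smad4iko and 11.6 ± 12.57 CPM in Smad4fl/fl. Of 6 cell cycle genes 0 were above 0, and Mki67 averaged 10.4 ± 10.1 CPM in Smad4iko and 33.7 ± 16.2 CPM in Smad4fl/fl.

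Outside neutrophils, 5 of the 10 genes stood above what free RNA from neutrophils would give in at least 1 class, and 5 did not. RNA freed from neutrophils should keep its genes in the ratio they have in neutrophils. A gene was read as above free RNA in a class where its ratio to S100a8 and S100a9 was more than 3 times that in the neutrophils of the same library, in every library with at least 10 of its UMIs there, at a mean of at least 10 CPM. Of 240 pairs of gene and class, 23 met this rule, from 5 genes. Camp, Ltf, Ngp, Retnlg and Stfa2l1 met it in none of the 24 other classes, and their highest class means were 2.49 CPM for Camp in T cells (16.1 CPM in Smad4iko 1, and a mean of 0.219 CPM without it), 2.17 CPM for Ltf in large vessel endothelium, 6.24 CPM for Ngp in basophils or mast cells, 9.87 CPM for Retnlg in platelets and 3.84 CPM for Stfa2l1 in basophils or mast cells, the last 4 from at most 4 UMIs each.

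Lcn2 was also found in epithelium. AT2 cells, which make surfactant, held 702, 559, 675 and 739 CPM of Lcn2 in Smad4iko 1 to 4, and 510, 308 and 248 CPM in Smad4fl/fl 1 to 3. The groups did not overlap, but some libraries held as few as 2 AT2 cells of 108 in all, and the class was not tested. Lrg1 was found in endothelium, at a mean over libraries of 249 CPM in large vessels, 38.8 CPM in aerocyte capillaries (aCap) and 18.6 CPM in general capillaries (gCap), and in AT2 cells at 116 CPM. Csf3r was found in other myeloid cells, at 89.1 CPM in non-classical and 74.9 CPM in classical monocytes, 27.8 CPM in alveolar macrophages and 23.0 CPM in interstitial macrophages. Wfdc17 was found in antigen-presenting and phagocytic cells, at 528 CPM in cDC2 (conventional dendritic cells type 2), 502 CPM in interstitial macrophages, 340 CPM in classical monocytes, 113 CPM in alveolar macrophages and 112 CPM in migratory dendritic cells. The remaining pairs were Lcn2 in AT1 cells, Lrg1 in smooth muscle and pericytes and Wfdc17 in erythroid cells and platelets, each with at most 85 UMIs and at least 10 of them in 1 or 2 libraries. Without the library that held most, AT1 cells had 0 CPM of Lcn2 and smooth muscle and pericytes 1.45 CPM of Lrg1.

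Il1r2 was found in cDC2 at a mean of 198 CPM, in cDC1 at 85.2 CPM, in classical monocytes at 45.9 CPM without Smad4fl/fl 1 (96.1 CPM with its 2 cells), in plasmacytoid dendritic cells (pDC) at 24.2 CPM and in non-classical monocytes at 13.3 CPM. In cDC2 it stood at 357, 238, 10.3 and 22.1 CPM in Smad4iko 1 to 4, and at 453, 167 and 141 CPM in Smad4fl/fl 1 to 3. In cDC1 it stood at 111, 138, 8.43 and 17.7 CPM in Smad4iko 1 to 4, and at 151, 85.2 and 85.5 CPM in Smad4fl/fl 1 to 3. In 5 of 5 such classes both Smad4iko 3 and 4 lay below every other library, as in neutrophils. The part of whatever sets these libraries apart was not tested.

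Of the 11 pairs above free RNA in the 10 classes where each library held 30 or more cells, 0 passed between the genotypes, with edgeR adjusted p between 0.516 and 0.997. Over the 10 classes tested edgeR called 8 of 83262 tests (0.00961%). The smallest p of the 11 belonged to Csf3r in non-classical monocytes, with a log2 change of -0.64 ± 0.22 (SE). Wfdc17, which stood apart in neutrophils, had 506, 535, 554 and 577 CPM in cDC2 of Smad4iko 1 to 4, and 503, 691 and 331 CPM in Smad4fl/fl 1 to 3, a log2 change of 0.03 ± 0.25. In interstitial macrophages its log2 change was -0.08 ± 0.54 and in alveolar macrophages 0.27 ± 0.23. Whether the change in neutrophils differs from these was not tested.

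**Figure D5:**
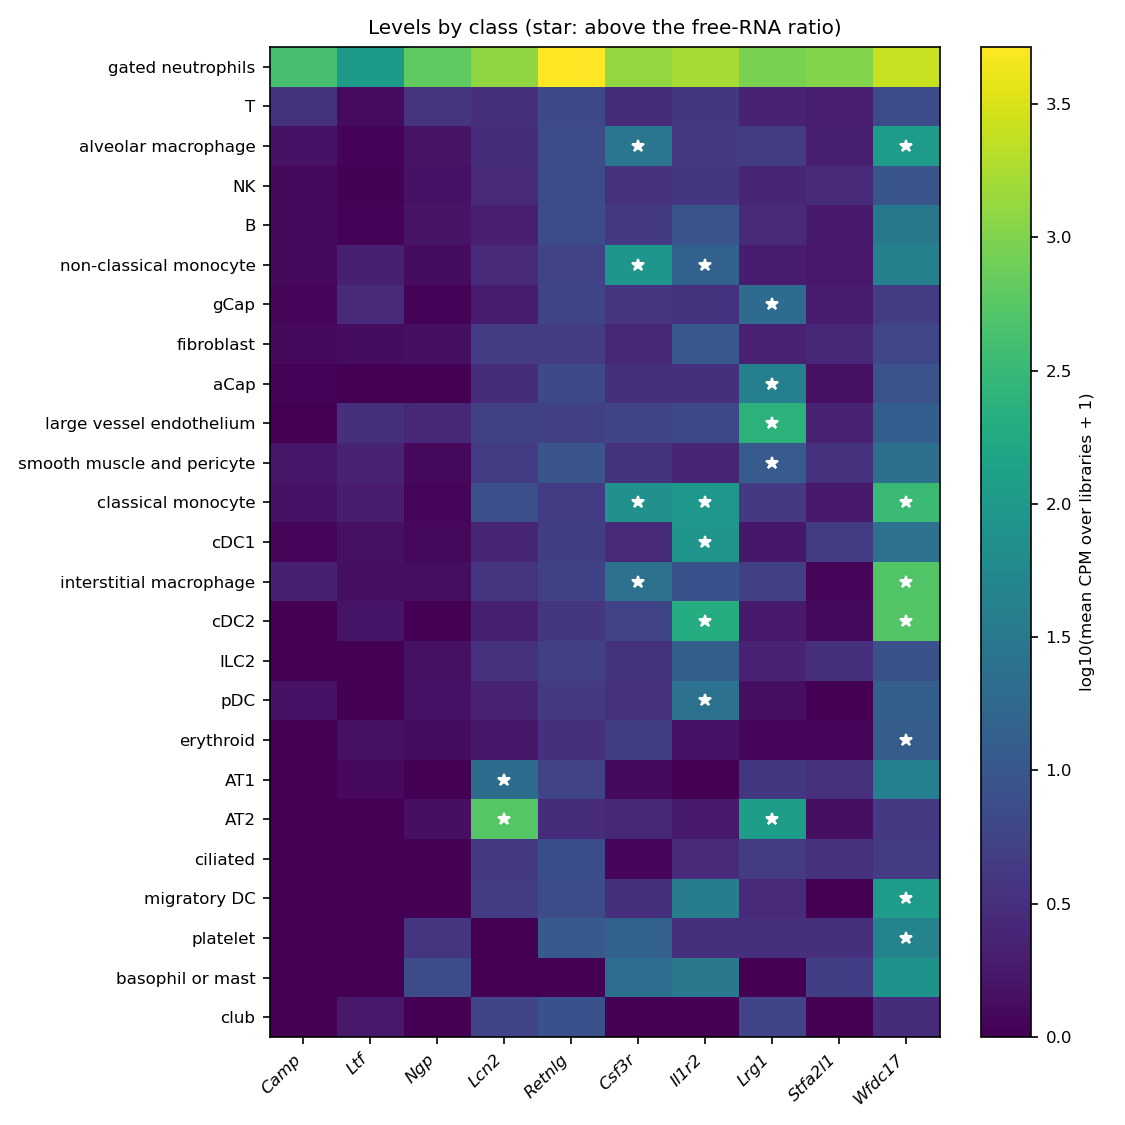
Mean CPM over libraries (colour, log10 of CPM + 1) of the 10 genes in gated neutrophils (top row) and 24 other classes, ordered by number of cells, with stars on the 23 pairs above the ratio of free RNA. Camp, Ltf, Ngp, Retnlg and Stfa2l1 carry no star, while Lrg1 is starred in endothelium and Wfdc17, Csf3r and Il1r2 in myeloid classes.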

How the data were processed

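Lung cells of 7 mice were measured, 4 Smad4iko and 3 Smad4fl/fl, with 1 library per mouse per the labels. Per the file headers, the authors deposited a sparse matrix of raw UMI counts per gene and barcode for each library, written by Cell Ranger 6.1.1, with no normalization. Build mm10 and the tools UMI-tools and fastp are named in the submitters' processing notes, where no version is given for them. Each deposited barcode held at least 500 UMIs. The libraries held 46449235 to 66557262 UMIs in 55671 barcodes, and 31107 of 31253 gene IDs matched GENCODE M21.

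Barcodes passed (50955) if they held 300 or more genes, 600 or more UMIs and no more than 20% of UMIs from mitochondrial genes. Scrublet in scanpy 1.11.5, at an expected rate of 6%, marked 1284 of them as doublets (2.52%), which were removed. Cells were clustered with leidenalg 0.10.2 at resolution 1 on 40 principal components of 2000 variable genes without the 10 genes described, with 15 neighbours and no integration. A further split at resolution 0.5 was made of 4 mixed clusters, chosen on seeing which genes led them, and clusters were named from 29 marker sets, with 1869 cells left unnamed. Class names stand for cells like that type and rest on these rebuilt clusters.

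Replicates are mice: UMIs were added up within each library for a class and compared by the quasi-likelihood test in edgeR 4.0.16, after filterByExpr and TMM, on genotype alone. Benjamini-Hochberg adjusted p-values over all tested genes were held to 0.05. DESeq2 1.42.0 was the other tool. On simulated counts of this neutrophil comparison (9071 genes) edgeR recovered 0% of 100 genes changed 2-fold and 48% of 100 changed 4-fold, and 4 of 52 calls were false. No library was a copy of another of its group, since chi-square values of their summed counts lay between 12.4 and 59.1 per gene. Promoters are from RefSeq (GRCm38.p6) and were matched by symbol for all 10 genes.

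The 10 genes and the gene lists were chosen with earlier results of these data known. Named beside the 10 genes are the gate genes, Smad4, up to 6 genes of each list by level in gated neutrophils, and up to 3 nearest genes of each of the 10 by correlation of at least 0.3 and at least 20 CPM. Cd177 and Ly6g in the granule-gene cells, the genes at 0 UMIs there and single exceptions were named after their values were seen. Alternatives were the other tool, scaling, filters on genes, cells and doublets, other gates, other bins, each library left out, Smad4iko 3 and 4 left out or marked by a covariate, a sex covariate and a replicate block.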

Additional observations from a re-analysis of the deposited data

How the results depend on the processing

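Wfdc17, Lrg1, Lcn2, Retnlg, Stfa2l1, Camp and Ngp kept a log2 change above 0 under all 22 settings run in neutrophils. The 10 genes were chosen with this contrast known, and every setting draws on the same 7 libraries. A constant sign therefore supports nothing by itself. Log2 ratios of bin 5 to bin 1 kept their sign under all 9 settings for each of the 10 genes but Stfa2l1 (-0.21 in the neutrophil clusters and -0.01 without other lineage UMIs). Ranges of the genotype change were 3.48 to 4.52 for Wfdc17, 1.88 to 2.68 for Lrg1, 1.52 to 2.27 for Lcn2, 1.27 to 1.75 for Retnlg and 0.82 to 1.92 for Stfa2l1, and Csf3r ran from -0.06 to 0.47. Camp ran from 0.15 to 3.00 and Ngp from 1.32 to 2.56. Ltf was -0.47 without the granule-gene cells, which that setting removes by their UMIs of Camp, Ltf and Ngp. Il1r2 ranged between -0.65 and 0.033 with a library left out (0.033 without Smad4iko 3, 0.029 without Smad4iko 4), and was 0.47 without both and 0.46 with a covariate for them. The count of genes called in neutrophils, 0 with edgeR, was 28 with DESeq2, 6 without the filter, 2 without Smad4iko 3 and 4 and 0 whichever single library was left out. In other classes the 8 calls became 231 with DESeq2, 13 with library-size scaling, 650 without the filter, 57 without Smad4iko 3 and 4, 43 with their covariate, 28 with a sex covariate and 7 to 21 with a library left out (21 without Smad4iko 2, 15 without Smad4iko 1, 13 without Smad4fl/fl 3).

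The granule-gene share difference of 2.58 percentage points was 3.65 at 3 UMIs, 1.72 at 10 UMIs, 1.19 in thinned cells and 2.15 to 3.00 with a library left out. Without Smad4fl/fl 1 the log2 change turned to 0.64 for Lrg1 in aCap and 0.10 for Il1r2 in cDC2, whose lowest values with a library left out were -0.60 and -1.58. Without Smad4iko 3 and 4, and with their covariate, it turned to 0.26 and 0.26 for Il1r2 in cDC1, 0.20 and 0.21 for Il1r2 in cDC2, -0.37 and -0.40 for Lrg1 in gCap and -0.72 and -0.74 for Csf3r in interstitial macrophages, where it ran between -0.23 (without Smad4iko 4) and 0.37 with a library left out. Wfdc17 in cDC2 was -0.011 without the filter and between -0.24 (without Smad4fl/fl 3) and 0.29 with a library left out. In interstitial macrophages it ran between -0.41 and 1.02 (without Smad4fl/fl 2), with 0.15 without Smad4iko 2. The cause was not tested.

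Same-numbered libraries of the genotypes correlated at 0.27, -0.23 and 0.19 in their deviations from the group means. Differently numbered ones ran from -0.25 to 0.33. By Xist and Ddx3y, libraries 1 and 2 were male and libraries 3 female in both genotypes. These few values cannot decide whether the numbers pair the libraries. With a replicate block 2 genes were called in neutrophils and 71 in other classes, Camp was 0.15, Csf3r in interstitial macrophages -0.31 and Wfdc17 there 0.27. Nearly all UMIs of Camp, Ltf and Ngp came from few cells, which limits the precision of their levels.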

Other observations

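Some genes outside the lists, chosen after their values were seen, were also higher in all Smad4iko neutrophils. Wfdc21, of the same protein domain family as Wfdc17, averaged 2393 ± 761 CPM in Smad4iko (SD, n = 4) and 545 ± 198 CPM in Smad4fl/fl (SD, n = 3), 2.34 ± 0.47 (SE) higher on the log2 scale, with adjusted p = 0.498 in edgeR and 0.000242 in DESeq2. Wfdc18 stood at 7.71, 17.4, 11.5 and 10.0 CPM in Smad4iko 1 to 4, and at 0, 0.654 and 1.03 CPM in Smad4fl/fl 1 to 3. Ifitm6, an interferon-induced transmembrane family gene, averaged 300 ± 54.2 CPM in Smad4iko and 73.2 ± 32.8 CPM in Smad4fl/fl, 2.18 ± 0.42 higher on that scale, with adjusted p = 0.498 in edgeR and 0.000328 in DESeq2.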
